A study of Mus musculus with 6 samples.

Results

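The genes described here are feedback and target genes of Wnt/beta-catenin signalling together with TCIM, read in HK-2 cells with and without USAG-1 overexpression. They number 10 of the 39234 genes counted. TCIM and NOTUM were chosen by their large log2 fold changes between these groups, so their values are a description and carry no test. The other 8 (AXIN2, NKD1, LEF1, TCF7, LGR5, RNF43, ZNRF3 and CTNNB1) were taken for their function.

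RNA was sequenced from 3 control libraries and 3 libraries with overexpression of USAG-1, to find what changes in these cells when USAG-1 is raised. USAG-1 is encoded by SOSTDC1 and is a secreted BMP antagonist that also modulates Wnt signalling. HK-2 is an immortalised human proximal tubule line, and its identity was not authenticated by STR typing in the study. The labels give the controls as wild type, without saying whether they received an empty plasmid, and the study's methods describe overexpression in cells as transient plasmid transfection. The labels name mouse as the organism, although the line and the gene identifiers are human. They do not say that the libraries came from separate cultures, and the study describes biological replicates for most of its experiments without naming these libraries. The p-values therefore measure the spread between these libraries, which may be technical.

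The total counts were 41236194, 48699471 and 44611384 in the control libraries and 45448720, 43837891 and 42782931 in the USAG-1 libraries. Levels are given as CPM, counts relative to the library total on the TMM scale, and 3 counts, the limit that a count of 0 allows, correspond to 0.0608 to 0.0719 CPM. These limits cover counting error only. Gene positions are those of the deposited table, for which the submitters' processing notes name hg38.

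Wnt ligands bind Frizzled and LRP5/6 receptors, which stops a destruction complex from degrading beta-catenin. Beta-catenin then joins TCF/LEF factors on DNA and switches on target genes, several of which restrain the pathway in turn. In the kidney this pathway shapes the developing nephron and is active again in injured tubules.

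The libraries were compared before the members were read. Control replicate 3 stood apart from the other controls, with a score of -54.3 on the second principal component, whereas control replicates 1 and 2 scored 28.2 and 25.2. Its counts differed from those of control replicate 1 by a chi-square of 31.5 per degree of freedom, against 5.45 between control replicates 1 and 2. Values without this library are given for several members and lists, but not beside every result that it moved.

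Counts of SOSTDC1 were 79, 80 and 60 in control cells and 5072, 3907 and 4438 with USAG-1, so its level matched the label of every library.

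Markers were read as a check of the cell type. KRT8, a keratin of simple epithelia, was at 1081 ± 170.2 CPM in control cells and 1100.02 ± 26.2 CPM in USAG-1 cells (SD, n = 3). PAX8, a transcription factor of the nephron lineage, was at 375 ± 8.57 CPM and 448 ± 7.16 CPM (SD, n = 3). GGT1, a brush border enzyme of the proximal tubule, was at 105 ± 17.0 CPM and 153 ± 14.2 CPM (SD, n = 3). MME, a membrane protease, was at 17.2 ± 2.12 CPM and 33.6 ± 0.527 CPM, and SLC4A4, a bicarbonate transporter of the tubule, was at 45.3 ± 2.17 CPM and 48.1 ± 1.79 CPM (SD, n = 3). The proximal tubule list was thus partly present, and some of its defining markers were at or near 0. LRP2, the endocytic receptor megalin, had 0 counts in every library, and its partner CUBN had 15, 13 and 0 counts in control cells and 0, 0 and 3 in USAG-1 cells. The water channel AQP1 had 0, 4 and 8 counts in control cells and 4, 0 and 0 in USAG-1 cells. Among the other epithelial genes, PAX2, a relative of PAX8, had 9, 4 and 14 counts in control cells and 13, 7 and 8 in USAG-1 cells, and CDH1, which encodes E-cadherin, had 0, 7 and 5 and then 5, 9 and 0. The cells thus carried part of the epithelial, nephron and proximal tubule markers, with others at or near 0.

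TCIM (ENSG00000176907, chromosome 8, 40153482 to 40155310, plus strand) encodes a small nuclear protein that binds Chibby and thereby relieves its block of beta-catenin. TCIM stood at 8.77, 8.86 and 7.18 CPM in the control libraries, from 366, 437 and 306 counts. It stood at 27.4, 28.6 and 30.4 CPM in the USAG-1 libraries, from 1257, 1249 and 1313 counts. All 3 USAG-1 libraries lay above all 3 controls, and the lowest USAG-1 library was the one with replicate number 1. The mean was 3.48-fold that of the controls, a log2 fold change of 1.80 with a standard error of 0.11. Among the 18188 genes tested, 51 had a log2 fold change at least that large, TCIM included. Leaving out single libraries moved it between 1.71 (without control replicate 3) and 1.85 (without control replicate 2). In bulk samples, fewer cells of a type and less RNA per cell cannot be told apart, here and for every gene below.

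NOTUM (ENSG00000185269, chromosome 17, 81952507 to 81961187, minus strand) encodes a secreted esterase that removes the lipid from Wnt ligands and so inactivates them, and its own transcription is a target of the pathway. NOTUM had 51, 50 and 45 counts in the control libraries, or 1.22, 1.01 and 1.06 CPM. It had 8, 11 and 19 counts in the USAG-1 libraries, or 0.174, 0.252 and 0.440 CPM. The groups did not overlap, and the highest USAG-1 library, replicate 3, was still below the lowest control. The means were 1.10 ± 0.110 CPM in control cells and 0.289 ± 0.137 CPM in USAG-1 cells (SD, n = 3), 3.80-fold lower with USAG-1. This was a log2 fold change of -1.92 with a standard error of 0.41. It ranged from -2.35 without USAG-1 replicate 3 to -1.65 without USAG-1 replicate 1, so the size rested on few counts. Among all genes tested, 265 had a log2 fold change at or below that of NOTUM, itself included. TCIM and NOTUM thus moved in opposite directions in these libraries.

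The share of counts from mitochondrially encoded genes also differed between the groups. It was 5.59%, 5.48% and 4.80% in the control libraries and 1.55%, 1.50% and 1.55% in the USAG-1 libraries. With these genes left out of the library sizes, the log2 fold change was 1.80 for TCIM and -1.91 for NOTUM.

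**Figure D1:**
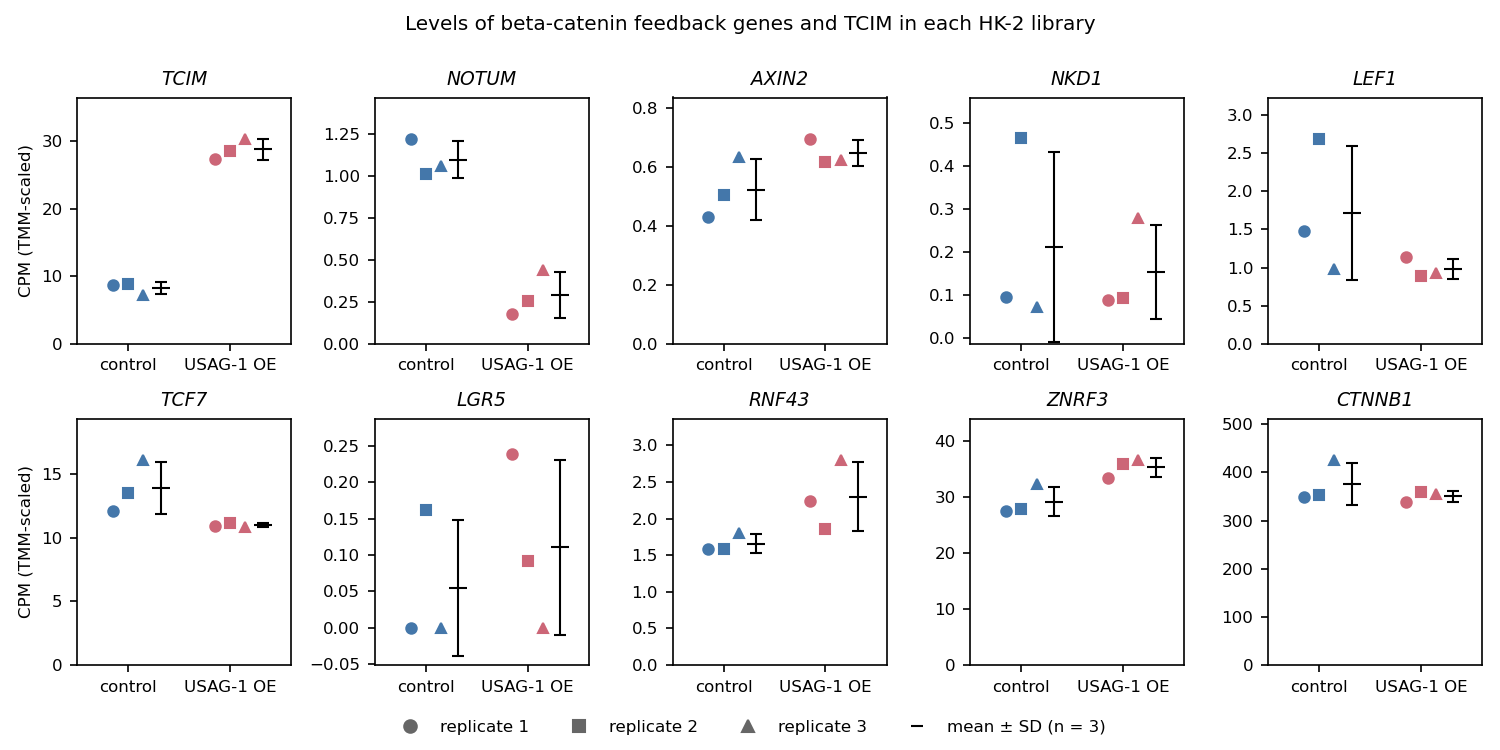
Level of each member in CPM on the TMM scale (vertical axis, linear, a separate range for each gene) in the control and the USAG-1-overexpressing (USAG-1 OE) libraries. Each symbol is 1 library, its shape is the replicate number, and the black bar is the mean ± SD (n = 3). The groups are apart for TCIM, NOTUM, TCF7, RNF43 and ZNRF3, and they overlap for AXIN2, NKD1, LEF1, LGR5 and CTNNB1.

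Of the 8 members taken by function, 6 passed the filter on low counts and were tested. None of these 6 passed an adjusted p under 0.05 in edgeR's quasi-likelihood test (Benjamini-Hochberg over all genes tested), where 15.9% of all genes did. At an unadjusted p under 0.05 there were 2 (TCF7 and ZNRF3), where 30.5% of all genes had such a p. DESeq2 called 1 and limma-voom called 0, where they called 20.7% and 15.9% of all genes. In 3 of the 6 the groups were apart, as they were in 37.6% of all genes tested. Their log2 fold changes ran from -0.81 to 0.47 with a median of 0.09, where the median of all genes tested was -0.02. With 1 library left out, the median of the members ran from -0.15 to 0.07, in fits that tested 6 or 7 of the 8. TCIM lay above the range of the 6 and NOTUM below it, and both had been chosen by such changes. Without control replicate 3, 2 of the 6 passed the threshold, in a fit where 27.0% of all genes did.

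CTNNB1 (ENSG00000168036, chromosome 3, 41194741 to 41240443, plus strand) encodes beta-catenin, whose amount is set mainly by degradation of the protein. CTNNB1 stood at 348, 352 and 426 CPM in control cells and 338, 359 and 355 CPM in USAG-1 cells. Control replicate 3 was the highest of the 6 libraries, and the other 5 lay close together. Its log2 fold change was -0.10 (standard error 0.08, 95% confidence interval -0.29 to 0.09, adjusted p = 0.469). Without control replicate 3 it was 0.0068 (adjusted p = 0.916).

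AXIN2 (ENSG00000168646, chromosome 17, 65528563 to 65561648, minus strand) encodes a scaffold of the destruction complex and is the most widely used readout of the pathway. It had 18, 25 and 27 counts in control cells and 32, 27 and 27 in USAG-1 cells. The groups overlapped, with means of 0.524 ± 0.102 CPM and 0.647 ± 0.0435 CPM (SD, n = 3). The log2 fold change of 0.30 had a 95% confidence interval of -0.49 to 1.10 (adjusted p = 0.607). It was 0.19 without control replicate 1 and 0.47 without control replicate 3 (adjusted p = 0.820 and 0.459). The interval includes changes in either direction.

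NKD1 (ENSG00000140807, chromosome 16, 50548396 to 50649249, plus strand) encodes an inhibitor that binds Dishevelled. It had 4, 23 and 3 counts in control cells and 4, 4 and 12 in USAG-1 cells, too few for the filter. Control replicate 2 alone held most of the control counts, and the groups overlapped. Without the filter its log2 fold change was -0.48 with a standard error of 0.93.

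ZNRF3 and RNF43 are ubiquitin ligases of the cell surface that remove Frizzled receptors, and both are induced by the pathway. ZNRF3 (ENSG00000183579, chromosome 22, 28883572 to 29057488, plus strand) stood at 27.4, 27.9 and 32.2 CPM in control cells and at 33.3, 35.9 and 36.6 CPM in USAG-1 cells. Every USAG-1 library lay above every control, with control replicate 3 the nearest to them. The log2 fold change was 0.28 (standard error 0.08, 95% confidence interval 0.08 to 0.47), with an adjusted p of 0.062 that missed the threshold. It passed with library sizes alone (0.29, adjusted p = 0.0318), with DESeq2's Wald test (0.27, adjusted p = 0.0431) and without control replicate 3 (0.36, adjusted p = 0.00366). Over all 14 alternatives its adjusted p ran from 0.00366 to 0.197.

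RNF43 (ENSG00000108375, chromosome 17, 58353676 to 58417595, minus strand) stood at 1.58, 1.58 and 1.81 CPM in control cells and at 2.24, 1.85 and 2.80 CPM in USAG-1 cells. The groups were apart by a narrow gap between control replicate 3 and USAG-1 replicate 2. The log2 fold change of 0.47 (standard error 0.22, 95% confidence interval -0.04 to 0.99) did not pass, at an adjusted p of 0.195, and without USAG-1 replicate 3 it was 0.31 (adjusted p = 0.477). RNF43, with 526 counts, overlaps the gene ENSG00000285897 on the same strand (207 counts) and TSPOAP1-AS1 on the other strand (379 counts), so some reads may have been assigned to either.

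LGR5 (ENSG00000139292, chromosome 12, 71439798 to 71586310, plus strand) encodes a receptor for R-spondins, which protect Frizzled from ZNRF3 and RNF43. It had 0, 8 and 0 counts in control cells and 11, 4 and 0 in USAG-1 cells. LGR5 was at 0 in 3 libraries and was not tested. Without the filter its log2 fold change was 0.96 with a standard error of 1.77.

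LEF1 and TCF7 encode DNA-binding partners of beta-catenin, and both are themselves transcribed in response to it. LEF1 (ENSG00000138795, chromosome 4, 108047545 to 108168956, minus strand) stood at 1.49, 2.70 and 0.985 CPM in control cells and at 1.13, 0.893 and 0.927 CPM in USAG-1 cells. Control replicate 2 was the highest, while control replicate 3 lay among the USAG-1 libraries. The log2 fold change was -0.81 (standard error 0.38, 95% confidence interval -1.68 to 0.06, adjusted p = 0.192). It was -0.33 without control replicate 2 (adjusted p = 0.594) and -1.08 without control replicate 3 (adjusted p = 0.0326), and its adjusted p ran from 0.0326 to 0.594 over the alternatives.

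TCF7 (ENSG00000081059, chromosome 5, 134114681 to 134151865, plus strand) stood at 12.1, 13.5 and 16.1 CPM in control cells and at 11.0, 11.2 and 10.8 CPM in USAG-1 cells. All USAG-1 libraries lay below all controls and close to each other, and the controls were spread more widely. The log2 fold change of -0.34 (standard error 0.12, 95% confidence interval -0.63 to -0.06) did not pass, at an adjusted p of 0.101, and without control replicate 3 it was -0.22 (adjusted p = 0.167). TCF7 overlaps SKP1 on the other strand, which had 34802 counts against 3318 for TCF7. The libraries were made with a strand-specific protocol, but whether the counting used strand is not given in the sources used here.

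LEF1 and TCF7 are also genes of T cells, and T and NK cell markers differed between the groups. Of 31 such markers, 30 were tested and 24 were lower with USAG-1, where 6.91% of all genes were lower. No marker of the list passed the threshold as higher, and the median log2 fold change was -2.98. With at least 10 counts required in every library, genes that fell to few counts were removed. Of the markers left, 15 were lower, where 1342 of the 15906 genes tested in that fit were lower. The number of markers left is not reported here, so their share cannot be set beside that of all genes. The summed level of the list was 168, 162 and 185 CPM in the control libraries and 55.8, 45.2 and 42.9 CPM in the USAG-1 libraries. Its most abundant gene by the mean over all 6 libraries, the cytokine receptor IL7R, stood at 20.3 ± 2.14 CPM in control cells and 24.4 ± 2.90 CPM in USAG-1 cells (SD, n = 3), and without it the sum was 6.41-fold lower with USAG-1. In control cells GNLY, which encodes a protein of cytotoxic granules, was higher than IL7R, at 24.9 ± 3.58 CPM (SD, n = 3). The lower markers with the smallest p were GZMB, a protease of cytotoxic granules (log2 fold change -4.31, standard error 0.25, adjusted p = 6.48e-05), CD6 (-3.58, standard error 0.22) and the kinase LCK (-2.51, standard error 0.17). No marker was at 0 in all libraries of a group. CD3D was at 0 in USAG-1 replicate 1, CD2, CD28 and GZMA were at 0 in USAG-1 replicate 2, and CD8B was at 0 in USAG-1 replicate 3. Zeros were not limited to USAG-1 cells: KLRB1 was at 0 in control replicates 1 and 3 and in USAG-1 replicates 2 and 3, GZMK in control replicate 3 and USAG-1 replicate 3, and GZMH in control replicate 1. Among the controls, the summed marker level was lowest in replicate 2, which had the highest LEF1, and highest in replicate 3, which had the highest TCF7. The part of these markers in the levels of LEF1, TCF7 and the other members was not tested.

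Other cell types were read through 4 more marker lists, beside the 15.9% of all genes that were called. Among 10 B cell markers, CD22 was higher (1.25, standard error 0.14) and the rest did not pass. With 1 library left out, 1 to 2 of the B cell markers were called, in fits that called 5.98% to 27.0% of all genes. Among 11 myeloid markers, ITGAM (-1.20, standard error 0.21) and LYZ (-0.73, standard error 0.20) were lower, as log2 fold changes. S100A9, the most abundant by the mean over all 6 libraries, did not pass. It stood at 13.7, 9.73 and 47.9 CPM in the control libraries, where LYZ had the higher mean (27.6 against 23.8 CPM). LYZ missed the threshold in 7 of 14 alternatives, and its log2 fold change ran from -0.88 to -0.44 with 1 library left out. No platelet or erythroid marker passed in edgeR's test or with limma-voom, 1 had an unadjusted p under 0.05, and 1 was called by DESeq2, without control replicate 3 or without USAG-1 replicate 1. The summed level of that list was highest in control replicate 2 (113 CPM) and USAG-1 replicate 1 (79.3 CPM), mostly through HBB. Among the 5 fibroblast and endothelial markers tested, LUM was higher (0.57, standard error 0.06). Of 7 kidney epithelial markers tested 2 were called, and of 6 proximal tubule markers tested 2 were called, where 15.9% of all genes were. In these epithelial lists, PAX8 (0.26), GGT1 (0.55) and the membrane protease MME (0.97) were higher, as log2 fold changes. LHX1 (-0.71), a factor of the nephric lineage, was lower. PAX8 missed the threshold in 4 and GGT1 in 2 of 14 alternatives, each of which left out a library. With 1 library left out, 1 to 5 kidney epithelial markers and 1 to 2 proximal tubule markers were called. Those fits called 5.98% to 27.0% of all genes.

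The members did not peak in the same library. Among the controls, replicate 3 held the highest level for 5 of the 10 members (AXIN2, TCF7, RNF43, ZNRF3 and CTNNB1) and replicate 2 for 4 (TCIM, NKD1, LEF1 and LGR5). Replicate 1 was highest for NOTUM.

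The genes whose pattern over the 6 libraries was most like that of TCIM were ANKRD1, EFHB and CAVIN2. The root mean square difference of their centred log2 CPM from TCIM was 0.12, 0.19 and 0.21. For NOTUM the nearest genes were CORO1A (0.26), MTCO3P12 (0.29) and TNFRSF1B (0.30). ANKRD1 encodes a nuclear ankyrin repeat protein and stood at 13.1 ± 0.481 CPM in control cells and 39.7 ± 1.39 CPM in USAG-1 cells (SD, n = 3). CORO1A, an actin regulator of leukocytes, stood at 21.1 ± 4.88 CPM and 5.92 ± 1.61 CPM (SD, n = 3). MTCO3P12 is a nuclear copy of a mitochondrial gene and may share reads with it. The likeness was ranked over 6 libraries, with each gene centred on its mean over all 6, so the group difference stayed in. TCIM and NOTUM were chosen for that difference, so genes with similar fold changes rank near them by construction. The log2 fold changes were 1.605 (ANKRD1), 1.48 (EFHB) and 1.40 (CAVIN2), and -1.83 (CORO1A), -1.82 (MTCO3P12) and -1.92 (TNFRSF1B). NOTUM itself, at a mean of 0.693 CPM, lay below the 5 CPM asked of the other genes.

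Other target genes of beta-catenin were read from a list of 44, of which 34 were tested. Among them 6 were higher and 6 were lower with USAG-1, where 8.95% of all genes were higher and 6.91% lower, and the median log2 fold change was -0.0029, between -0.89 and 1.06. The signs were split evenly, with 17 above and 17 below 0. With 1 library left out, the median ran from -0.0287 to 0.042. CLDN1, a tight junction protein, rose from 587 ± 32.1 to 915 ± 19.3 CPM (SD, n = 3, log2 fold change 0.64, standard error 0.06, adjusted p = 0.000564). JUN, a subunit of AP-1, rose from 164 ± 6.37 to 249 ± 15.2 CPM (SD, n = 3, log2 fold change 0.60, standard error 0.06, adjusted p = 0.00113). MITF, a transcription factor, rose by a log2 fold change of 0.39 (standard error 0.06), and SGK1, a kinase that raises tubular sodium transport, changed by -0.38 (standard error 0.05). These 4 genes passed in all 14 alternatives. MYC and CCND1, the targets best known for driving the cell cycle and named here after their values had been seen, had log2 fold changes of 0.03 (95% confidence interval -0.12 to 0.18) and -0.02 (-0.17 to 0.12).

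The lists of pathway components were read in the same fit. In the nuclear list of TCF factors and cofactors, 25 of 27 genes were tested, 10 were higher and 1 was lower, where 8.95% of all genes were higher and 6.91% lower, with a median of 0.16. TLE1, a corepressor that holds TCF targets silent, rose from 134 ± 4.80 to 194 ± 6.23 CPM (SD, n = 3, log2 fold change 0.54, standard error 0.06, adjusted p = 0.00106). The acetyltransferase EP300 (0.43, standard error 0.06), the corepressor CTBP2 (0.36, standard error 0.05) and the chromatin remodeller SMARCA4 (0.33, standard error 0.06) were also higher. These 4 passed in all 14 alternatives. TCF7L1 (0.81, standard error 0.16) and TCF7L2 (0.32, standard error 0.08), the TCF factors of this list, were also higher and are named after their values had been seen. LEF1 and TCF7 had negative log2 fold changes (-0.81 and -0.34) and did not pass. The single lower gene was CTNNBIP1 (-0.54, standard error 0.14), which blocks the binding of beta-catenin to TCF factors and is named here after its value had been seen. CBY1, which encodes Chibby, the partner of TCIM, did not pass (-0.17, standard error 0.13, adjusted p = 0.410), and its value had been seen before it was named. The number of called genes in this list was 5 to 7 when any library except control replicate 3 was left out, in fits that called 5.98% to 10.2% of all genes, and 13 without that one, where 27.0% were called.

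In the list of the destruction complex and Dishevelled, 25 of 26 genes were tested and 3 were called, 2 higher and 1 lower, with a median of 0.05. This is 12% of those tested, near the 15.9% of all genes. With 1 library left out, the median ran from 0.0285 to 0.0874. GSK3B, the kinase that marks beta-catenin for degradation, rose (0.32, standard error 0.06, adjusted p = 0.00832), as did DVL3, a Dishevelled protein that relays the Wnt signal (0.28, standard error 0.05). APC2, a homologue of the scaffold APC, fell (-0.48, standard error 0.12, adjusted p = 0.0343) but missed the threshold in 8 of 14 alternatives, and it overlaps other genes. The number of called genes here was 0 without USAG-1 replicate 2, 1 without USAG-1 replicate 1 and 8 without control replicate 3, in fits that called 5.98%, 6.92% and 27.0% of all genes. It was 6 with DESeq2's Wald test, which called 20.7% of all genes.

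At the cell surface, 12 of 16 Wnt receptor genes were tested, 3 were higher and none lower, where 8.95% of all genes were higher and 6.91% lower, with a median of 0.10. With 1 library left out, the median of the receptors ran from 0.0321 to 0.0985. LRP6, the co-receptor that USAG-1 is known to bind, rose from 84.2 ± 3.77 to 119 ± 5.66 CPM (SD, n = 3, log2 fold change 0.49, standard error 0.06, adjusted p = 0.00236) and passed in all 14 alternatives. FZD7 (0.35, standard error 0.08) and ROR1 (0.30, standard error 0.07), receptors of Wnt ligands, were higher but missed the threshold in 4 and 5 alternatives, all of which left out a library. The receptors called numbered 1 without control replicate 1 or any 1 USAG-1 library, and 6 without control replicate 3, in fits that called 5.98% to 10.2% and 27.0% of all genes. LGR4 (0.10, standard error 0.06, adjusted p = 0.316), a relative of LGR5, and RSPO3 (-0.0049, standard error 0.25, adjusted p = 0.992), a ligand of both, were the only genes tested of the R-spondin list. Neither passed in edgeR's test, with DESeq2 or with limma-voom, and neither had an unadjusted p under 0.05.

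Of 21 genes for Wnt ligands and their secretion, 8 were tested. WNT7B, a ligand made by tubular epithelium, was lower (-0.32, standard error 0.07, adjusted p = 0.0161) and the other 7 did not pass, so 1 of 8 was called where 15.9% of all genes were. WNT7B missed the threshold without control replicate 2 (adjusted p = 0.0557) and without USAG-1 replicates 1, 2 or 3 (adjusted p = 0.0549, 0.0903 and 0.0703). With 1 library left out, the number of called genes in this list ran from 0 to 2, in fits that called 5.98% to 27.0% of all genes. Of 11 secreted antagonists, 3 were tested, of which 1 was higher and 0 lower, where 8.95% of all genes were higher and 6.91% lower. All 3 had log2 fold changes above 0, from 0.23 to 1.26, and 2 of them did not pass. The 1 that passed was DKK1, which binds LRP6 and blocks Wnt signals, and it rose in every USAG-1 library. DKK1 stood at 50.4, 55.6 and 67.4 CPM in control cells and at 96.1, 99.0 and 106 CPM in USAG-1 cells (log2 fold change 0.80, standard error 0.11, adjusted p = 0.00254), and it passed in all 14 alternatives. The antagonists called numbered 2 with library sizes alone, with DESeq2's Wald test and without control replicate 3, in fits that called 16.1%, 20.7% and 27.0% of all genes.

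Cadherins and catenins tie beta-catenin to cell junctions, and 7 of 10 were tested, of which 2 were higher and 2 lower, where 15.9% of all genes were called. JUP (0.44, standard error 0.10), which encodes the beta-catenin relative plakoglobin, and CDH2 (0.28, standard error 0.07), the cadherin of cultured proximal tubule cells, were higher. CDH16 (-0.68, standard error 0.13), the cadherin specific to the kidney, and CDH6 (-0.46, standard error 0.11) were lower. JUP, CDH2 and CDH6 missed the threshold in 4, 6 and 7 of 14 alternatives, and CDH16 in 1, without USAG-1 replicate 2. The number of called genes in this list was 0 to 2 when any library except control replicate 3 was left out (5.98% to 10.2% of all genes) and 6 without that one (27.0%). With no filter on low counts, 2 were called, and 6.26% of all genes.

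**Figure D2:**
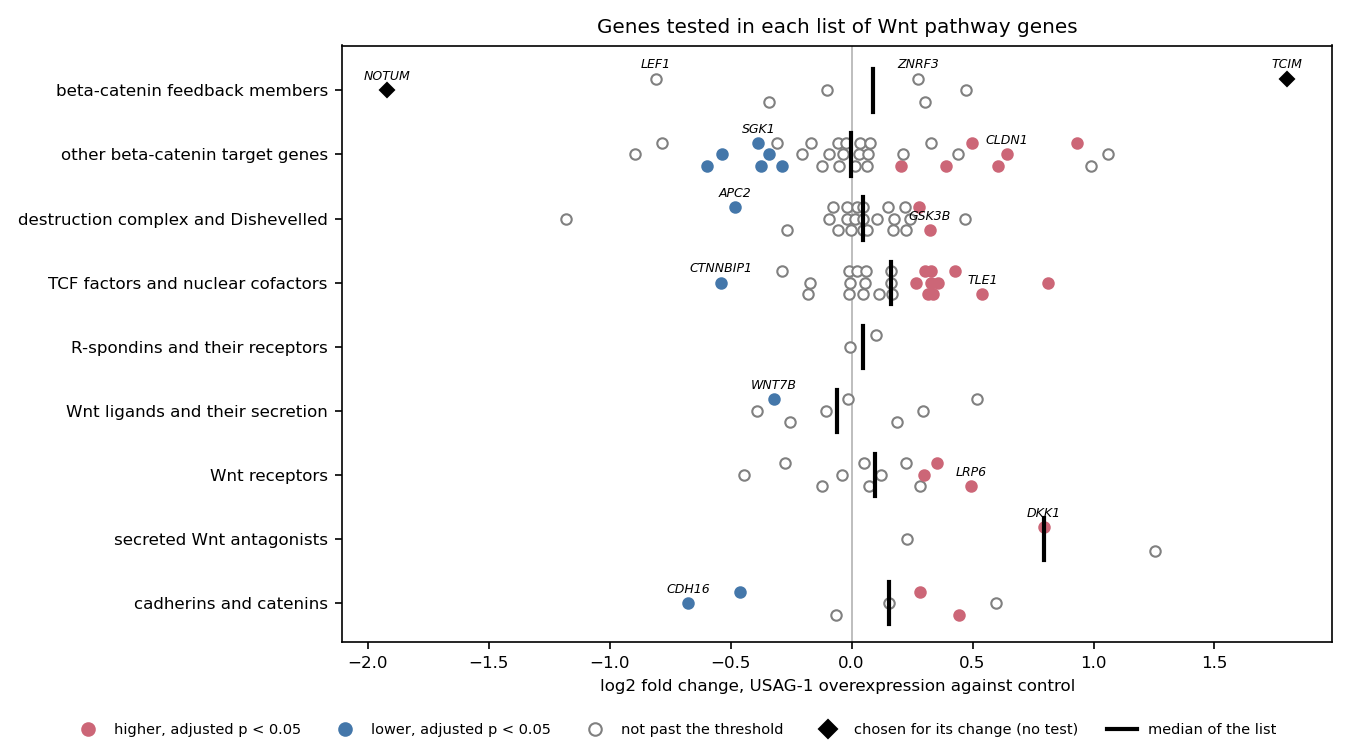
Log2 fold change of USAG-1 overexpression against control (horizontal axis) for each gene tested in 9 lists of Wnt pathway genes (vertical axis). Filled circles passed an adjusted p under 0.05 and were higher (red) or lower (blue), open circles did not pass, black diamonds are TCIM and NOTUM, and black lines are medians. TCIM at 1.80 and NOTUM at -1.92, which were chosen for their changes, lie outside all other genes drawn.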

How the data were processed

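The authors deposited whole-number counts per gene for all 6 libraries, without normalization. Per the labels, the libraries were strand-specific and made from poly(A) RNA, and the submitters' processing notes name FastQC, cutadapt 1.9 and hg38. The aligner and the counting tool are not given in the sources used here. Genes were filtered with filterByExpr, scaled by TMM and compared by the quasi-likelihood test of edgeR 4.0.16 (R 4.3.3), with Benjamini-Hochberg adjustment over 18188 genes and a threshold of 0.05. The standard error is the size of the log2 fold change over the square root of F. The alternatives were DESeq2 1.42.0 (test and size factors), limma-voom 3.58.1, library sizes alone, no filter, at least 10 counts in every library, mitochondrial genes left out of library sizes, a replicate block, and each library left out in turn. The code was tested on simulated data.

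The members and lists were chosen with earlier results of these data known, and the lists were typed from general knowledge. Named genes are SOSTDC1, the members, up to 4 called genes with the smallest p in each Wnt list (2 tested genes where none was called), the most abundant gene and up to 3 called genes of each marker list, and the 3 genes of at least 5 CPM most like TCIM and NOTUM. Other markers were named after their values had been seen, to describe the lists. The promoter motif search was not run, and no sequences are given, because no human reference was used here. SLC22A6 and SLC22A8 were not analysed here. Overlap of SOSTDC1 with other genes is not reported here.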

Additional observations from a re-analysis of the deposited data

How the results depend on the processing

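The log2 fold change of TCIM ran from 1.71 to 1.85 over 14 alternatives and that of NOTUM from -2.35 to -1.65 over 13, since at least 10 counts in every library removed it. Of 630 values of 45 other genes under the alternatives, which leave out SOSTDC1, genes named outside the rule, uncalled markers and the members that were not tested, 563 kept their direction and side of the threshold, 55 lost the threshold, 4 gained it and 8 changed sign. With 1 library left out, the number of differentially expressed genes ran from 1137 to 5091, the members past the threshold from 0 to 2 of the 6 that carry a test, and the genes of the 8 other Wnt lists from 16 to 52. Of these 6 members, 0 passed in the fit reported, and 1 passed with library sizes alone and 1 with DESeq2's Wald test. CTNNB1 ran from -0.1511 without control replicate 1 to 0.0068 without control replicate 3. RSPO3, also near 0, was 0.0049 with library sizes alone, 0.0137 with limma-voom and 0.0078 with the replicate block, and ran from -0.19 to 0.19 with 1 library left out. The cause was not tested.

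The replicate numbers gave no sign of a pairing of the libraries. The correlations of deviations between libraries of the same number were 0.0701, -0.0544 and 0.0371, and not every library correlated best with its own number. With 3 libraries per group, these values cannot show that the libraries were unpaired. With the replicate block, 2381 genes were called in place of 2884, and 0 of the 6 members and 31 genes of the other Wnt lists, 11 of them target genes, in place of 0, 35 and 12. Depth limits AXIN2, NKD1, LGR5 and NOTUM most, with at most 51 counts in any library.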
